A study of Mus musculus with 8 samples.

Results

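The St8sia genes encode sialyltransferases of the Golgi that join a sialic acid to a sialic acid already carried by a glycolipid or a glycoprotein. The family was taken by gene symbol, St8sia1 to St8sia6, which gave 6 of the 32285 genes counted in single nuclei of the mouse hippocampus and caudate putamen. It was selected on the measured St8sia6 counts, which were higher in microglia at 21 than at 3 months in these same libraries, so that pattern is described below without a test.

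The members differ in what they make. St8sia1 makes the ganglioside GD3, and St8sia5 adds further sialic acid to gangliosides, the sialylated glycolipids in which neuronal membranes are rich. St8sia3 places short sialic acid chains on glycoproteins and gangliosides of the brain. Only St8sia2 and St8sia4 are polysialyltransferases proper: they build the long polysialic acid chains of the adhesion molecule Ncam1, St8sia2 mainly in development and St8sia4 also in the adult. St8sia6 puts disialic acid on O-linked glycans, a structure bound by Siglecs, the sialic acid receptors of immune cells.

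Nuclei came from punches of the anterior hippocampus and of the caudate putamen of C57BL/6JN mice aged 3 or 21 months, with no treatment or engineered allele named in the labels. There were 8 libraries in 4 groups, 2 per region and age, and in each library nuclei of 1 male and 1 female mouse were combined. The labels do not say which animals gave which library, or whether hippocampal and caudate putamen libraries share animals, so p-values measure the spread between these libraries, which may be partly technical. Libraries held 67205436 to 234811422 unique molecular identifiers (UMIs, counted molecules) and 6387 to 17012 retained nuclei, with median depths of 6664 to 11326.5 UMIs per nucleus. Pairs of libraries shared 21 to 146 cell barcodes, at most 0.774% of those of a library.

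Clusters were named from marker genes, so the classes below are X-like (microglia-like, CA1-like and so on). The counts of a class were summed per library, and a level is given in CPM, the gene's count with that sum scaled to 1000000. At least 20 nuclei in every library of a region were present for 20 class sums, 10 in each region. Hippocampal CA1 sums held 826 and 1106 nuclei at 3 months and 267 and 195 at 21 months. Microglial sums held 165 to 315 nuclei per library in the hippocampus and 237 to 647 in the caudate putamen.

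**Figure D1:**
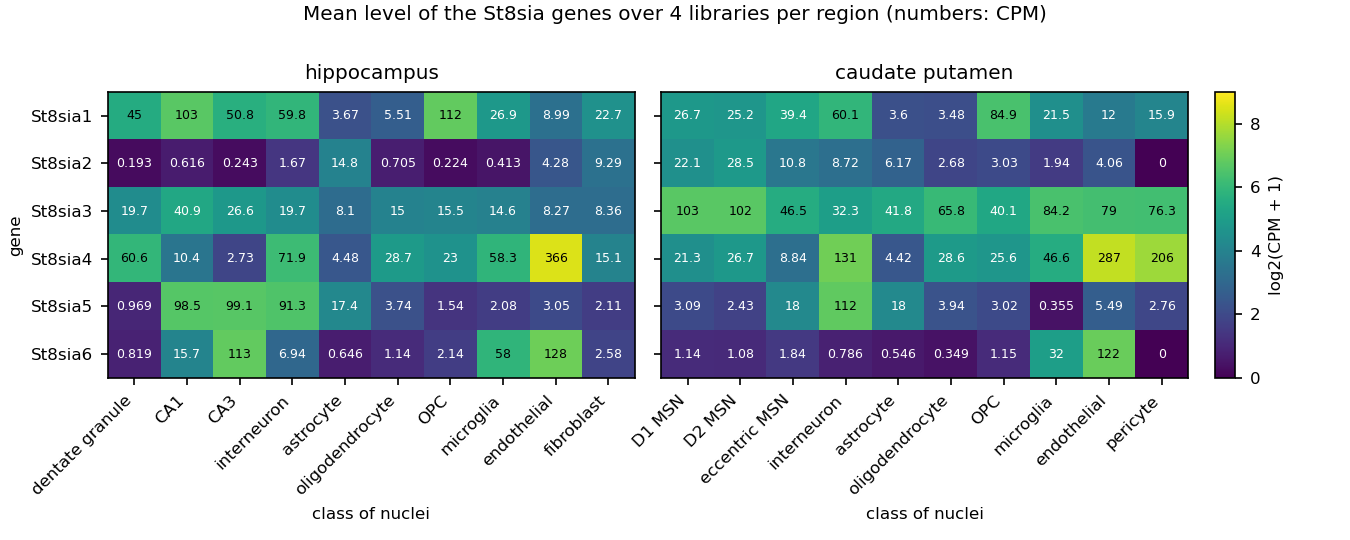
Mean level of each St8sia gene (rows) in 10 classes of nuclei per region (columns), as the mean CPM over 4 libraries; colour is log2(CPM + 1). Rows peak in different classes, among them oligodendrocyte precursors (OPC) for St8sia1, medium spiny neurons (MSN) for St8sia3 and endothelial nuclei for St8sia4 and St8sia6.

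The 6 genes were tested between classes, regions, ages and sexes in fits over all genes, with calls at an adjusted p under 0.05. Between 7 pairs of classes of the same libraries, 24 of 38 tests of a member passed, 13 higher and 11 lower, beside 48% of all tests of any gene. Between the regions 8 of 17 passed, 5 higher and 3 lower in the caudate putamen, beside 12.5%. Of the 3 lower, 1 was St8sia6 in microglia, from the same sums whose age contrast selected the family. The age counts leave St8sia6 in microglia out, whereas this region count includes it. With age 1 of 37 passed in the hippocampus (background 0.955%), 1 of 33 in the caudate putamen (1.54%) and 1 of 16 over both regions in glia (3.4%), all 3 higher at 21 months and none counting St8sia6 in microglia. The age effect differed between the regions in 0 of 16 tests by edgeR, beside 0% of all tests, with 6 at an unadjusted p under 0.05 and 0 by DESeq2. The age counts turned on single libraries: without the first young hippocampal library 6 passed in the hippocampus and 6 over both regions. Without the second young caudate putamen library 0 passed over both regions, and 3 without the second old one. For the caudate putamen, 0 passed without the first young or the second old library there, and 2 without any of 5 others. Without the filter on low counts, 9 passed in the hippocampus, 4 in the caudate putamen and 5 over both regions. The shares of all tests given above are of the main fit. No such share stands beside the counts of these alternatives, so they are not a result about the members. Leaving out 1 library left its group with 1, so the spread then came from the other groups.

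St8sia1 (ENSMUSG00000030283, minus strand of chromosome 6, 142821545 to 142964452 in GRCm38) was a gene of OPC and neurons. In the hippocampus OPC held 112.1 CPM ± 13.9 (SD, n = 4) and CA1 neurons 102.7 ± 5.60, and their libraries overlapped. Interneurons (59.8 ± 11.3), CA3 neurons (50.8 ± 5.20) and dentate granule cells (45.04 ± 4.70) came next and overlapped in turn, and oligodendrocytes (5.51 ± 2.48) and astrocytes (3.67 ± 2.10) were lowest. In the caudate putamen OPC (84.9 ± 9.91), interneurons (60.1 ± 6.97) and eccentric medium spiny neurons (39.4 ± 7.50) were each separate from the next. D1 medium spiny neurons (26.7 ± 4.20), which carry the dopamine receptor of the direct pathway, overlapped D2 medium spiny neurons (25.2 ± 3.64) of the indirect pathway.

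The step from OPC to oligodendrocyte was the widest St8sia1 difference tested. St8sia1 was higher in OPC by 4.31 on the log2 scale in the hippocampus (SE 0.25, adjusted p = 2.00e-07) and by 4.59 in the caudate putamen (SE 0.15, adjusted p = 1.76e-20). Among hippocampal neurons it was lower than in CA1 by 1.32 in granule cells (SE 0.06, log2 -1.32, adjusted p = 6.87e-10) and by 0.95 in CA3 (log2 -0.95, SE 0.07, adjusted p = 1.04e-09). It was higher in interneurons than in granule cells by 0.34 (SE 0.10, adjusted p = 0.0119) and than in D1 neurons by 0.92 (SE 0.12, adjusted p = 1.13e-07). Without the first young hippocampal library, the interneuron to granule difference did not pass (adjusted p = 0.0730). D2 and D1 neurons differed by -0.05 (SE 0.03, adjusted p = 0.329).

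With age, the call for St8sia1 was in D2 neurons of the caudate putamen. Levels there were 22.5 and 21.7 CPM at 3 months and 28.6 and 28.1 CPM at 21 months, so the ages did not overlap. The log2 fold change was 0.34 (SE 0.07, adjusted p = 0.0408). This call rests on all 4 libraries: leaving out each in turn gave log2 fold changes of 0.32 to 0.36 and lost the call. It was also lost with equal numbers of nuclei (adjusted p = 0.0510) and with DESeq2 (0.0536). Of 23 lists of other cell types in these D2 sums, 4 did not overlap and were lower in old libraries. Another 8 did not overlap and were higher. Among them, 9 of 12 oligodendrocyte markers (sum 180.6 to 182.5, then 193.5 to 209.5 CPM), 7 of 12 astrocyte markers (959.3 to 1053, then 1063 to 1270 CPM) and 5 of 8 pericyte markers (14.3 to 16.8, then 20.26 to 20.3 CPM) were higher in both old libraries. Eccentric neurons, OPC and interneurons hold more St8sia1 than D2 neurons, and their markers went different ways. Eccentric markers summed to 38.4 to 40.3, then 43.2 to 45.3 CPM (2 of 7 higher in both old libraries). OPC markers overlapped at 721.0 to 752.3, then 681.1 to 835.3 CPM. Interneuron markers were lower, at 1100 to 1219, then 1045 to 1061 CPM. The part of all these markers in the result was not tested. D1 neurons had 25.1 and 21.6 CPM, then 30.7 and 29.6 CPM, a log2 difference of 0.34 that did not pass (SE 0.09, adjusted p = 0.106). Granule cells had 42.7 and 39.5 CPM, then 49.3 and 48.6 CPM, a difference of 0.31 that did not pass (SE 0.08, adjusted p = 0.0714). It passed with DESeq2 (adjusted p = 0.0433). Without the first young hippocampal library the difference was 0.40 (SE 0.09).

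In microglia St8sia1 was listed at 11.9 and 10.5 CPM in young and 31.4 and 32.3 CPM in old caudate putamen libraries, which did not overlap. The log2 difference there was 1.54 (SE 0.41, adjusted p = 0.111). It passed without the first or the second old hippocampal library (adjusted p = 0.0402 and 0.0420), with the region fitted alone (0.0481) and without the filter on low counts (0.0180). The hippocampal microglia overlapped, with 27.1 and 17.2 CPM, then 18.5 and 44.6 CPM. Over both regions the log2 difference was 1.09 (SE 0.30, adjusted p = 0.0861), and these sums rest on 8 to 35 UMIs each. The difference over both regions was 1.25 without the first young (SE 0.32) and 1.33 without the first old hippocampal library (SE 0.29). The region contrast placed St8sia1 lower in OPC of the caudate putamen (log2 -0.42, SE 0.12, adjusted p = 0.0216), a call lost in 6 of 15 alternatives, DESeq2 among them (adjusted p = 0.224).

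**Figure D2:**
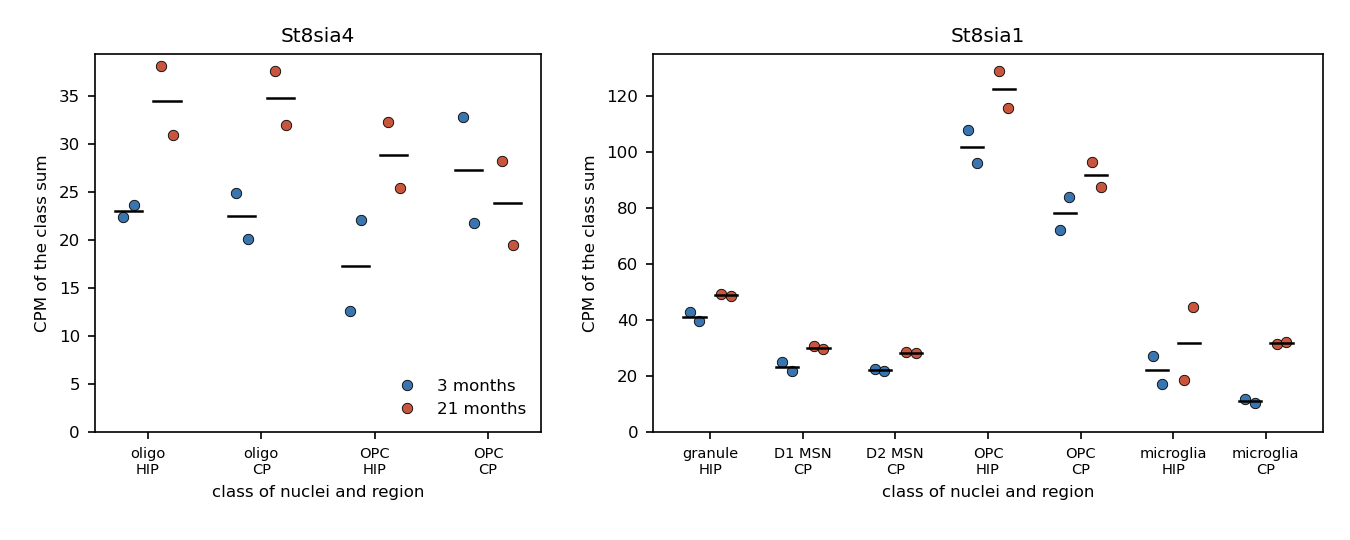
Level (CPM of the class sum, linear axis from 0) of St8sia4 in oligodendrocyte-lineage classes and of St8sia1 in 7 class sums; each point is a library, blue at 3 and red at 21 months, and bars are means of 2 libraries. Old points lie above young ones for St8sia4 in oligodendrocytes of both regions and for St8sia1 in D2 neurons, while hippocampal microglia overlap for St8sia1.

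St8sia5 (ENSMUSG00000025425, plus strand of chromosome 18, 77185839 to 77258771) had the sharpest contrast between neuron types. CA3 neurons held 99.1 ± 9.50 CPM, CA1 neurons 98.5 ± 7.38 and hippocampal interneurons 91.3 ± 3.47 (SD, n = 4), with overlapping libraries. Granule cells, the most numerous hippocampal neurons here, held 0.969 ± 0.543 CPM. The granule to CA1 difference was -6.61 on the log2 scale (SE 0.32, adjusted p = 0.000422) and interneurons exceeded granule cells by 6.34 (SE 0.35, adjusted p = 0.000385). CA3 and CA1 differed by 0.08 (SE 0.06, adjusted p = 0.261).

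The caudate putamen had the same kind of step for St8sia5. Interneurons held 111.8 ± 8.08 CPM, astrocytes 18.0 ± 5.18 and eccentric neurons 18.0 ± 2.50, against 3.09 ± 0.760 in D1 and 2.43 ± 1.36 in D2 neurons. Interneurons exceeded D1 neurons by 4.95 (SE 0.16, adjusted p = 2.13e-12). Caudate putamen astrocytes and eccentric neurons overlapped. Hippocampal astrocytes, at 17.4 ± 1.48 CPM, were separate from the classes above and below them, and the region difference of astrocytes was 0.04 (SE 0.19, adjusted p = 0.916). In D2 neurons St8sia5 was at 1.42 and 1.53 CPM, then 2.41 and 4.35 CPM. The log2 difference of 1.17 did not pass (SE 0.29, adjusted p = 0.0719), though it did with DESeq2 (0.0287). Without the first old caudate putamen library the difference was 1.52 (SE 0.22). In granule cells St8sia5 was at 0.969 and 1.73 CPM, then 0.650 and 0.525 CPM, and did not pass either (log2 -1.17, SE 0.33, adjusted p = 0.108). It passed without the filter (0.00144), and without the first young library the difference was -1.46 (SE 0.30).

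St8sia3 (ENSMUSG00000056812, plus strand of chromosome 18, 64254359 to 64279611) was highest in D1 and D2 medium spiny neurons, the projection neurons of the caudate putamen. D1 neurons held 102.9 ± 7.57 CPM and D2 neurons 101.8 ± 8.14 (SD, n = 4), and the pair differed by 0.01 on the log2 scale (SE 0.02, adjusted p = 0.725). Libraries of caudate putamen microglia (84.2 ± 18.3) overlapped D2 neurons, and eccentric medium spiny neurons were lower at 46.5 ± 4.43 CPM, the seventh of 10 classes. Caudate putamen interneurons were the lowest class there (32.3 ± 6.22), 1.95 below D1 neurons on the log2 scale (log2 -1.95, SE 0.10, adjusted p = 1.36e-25). Hippocampal neurons held less: CA1 40.9 ± 4.77, CA3 26.6 ± 4.75, interneurons 19.7 ± 3.88 and granule cells 19.7 ± 2.80 CPM. CA1 exceeded granule cells (granule minus CA1 -1.17, SE 0.06, adjusted p = 1.80e-09) and CA3 (CA3 minus CA1 -0.59, SE 0.10, adjusted p = 0.000129).

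Between the regions, the glial classes differed in St8sia3. It was higher in the caudate putamen in all 4 glial classes: by 2.73 in microglia (SE 0.26, adjusted p = 1.40e-06), 2.49 in astrocytes (SE 0.30, adjusted p = 0.00120), 2.14 in oligodendrocytes (SE 0.15, adjusted p = 8.98e-06) and 1.38 in OPC (SE 0.23, adjusted p = 4.95e-05). These 4 calls were kept in each of 15 alternatives. Microglia of the caudate putamen held 98.2 and 95.8 CPM at 3 months and 58.3 and 84.5 at 21 months. Those of the hippocampus held 15.3 and 30.2, then 6.18 and 6.61 CPM, so every caudate putamen library was above every hippocampal one.

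Markers of medium spiny neurons moved with that contrast. The summed level of 6 of them (Ppp1r1b, Rgs9, Pde10a, Drd1, Adora2a and Penk) averaged 84.3 CPM in hippocampal and 1196 in caudate putamen microglia, and 49.4 and 930.7 CPM in oligodendrocytes. In astrocytes it averaged 396.0 and 810.3 CPM, and in OPC 474.3 and 900.5 CPM. In all 4 classes every caudate putamen library was above every hippocampal one. The same sum averaged 810.3 to 1846 CPM in glial and vascular classes of the caudate putamen, against 5118 to 6623 CPM in the 3 medium spiny classes. Per 1000 CPM of these markers, St8sia3 stood at 17.7 CPM in D1, 15.5 in D2 and 9.07 in eccentric neurons, and at 44.0 to 71.4 in glial and vascular classes. These ratios differ between classes, and the part of neuronal RNA in the glial levels was not tested. An antisense gene, St8sia3os (chromosome 18, 64157721 to 64333706, minus strand), spans St8sia3 and had 47316 counts in the classes used. Whether counting used strand is not given in the sources used here, so reads of the pair may not be told apart.

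**Figure D3:**
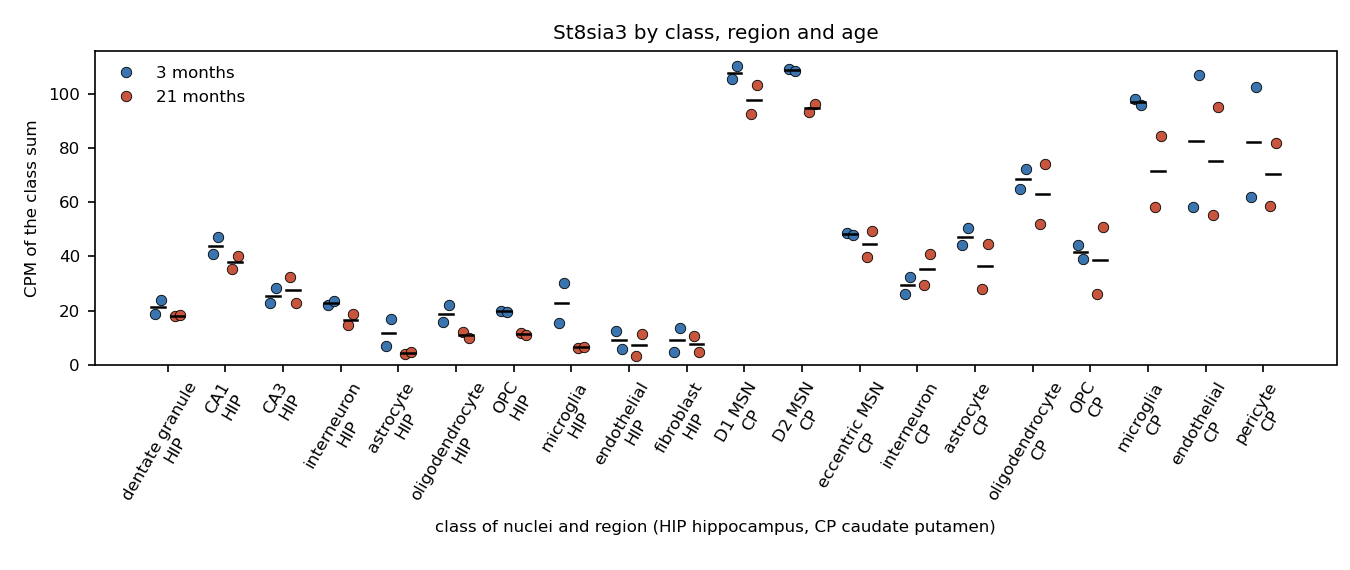
St8sia3 level (CPM of the class sum, linear axis from 0) in 20 class sums, hippocampal (HIP) on the left and caudate putamen (CP) on the right; each point is a library, blue at 3 and red at 21 months, and bars are means of 2 libraries. D1 and D2 neurons lie between 92.5 and 110.4 CPM, and glia of the caudate putamen lie above the same classes of the hippocampus.

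The age comparisons of St8sia3 did not pass with the low-count filter and all libraries in edgeR without a block. In microglia over both regions the log2 difference was -1.13 (SE 0.29, adjusted p = 0.0638), and in D2 neurons it was -0.22 (SE 0.06, adjusted p = 0.0858), from 109.2 and 108.3 CPM to 93.4 and 96.2 CPM. The microglial one passed without the filter (adjusted p = 0.00618). It was -1.30 without the first young hippocampal library (SE 0.28) and -1.28 without the second old caudate putamen one (SE 0.30). In hippocampal astrocytes levels were 6.84 and 16.7 CPM, then 4.02 and 4.80 CPM (log2 -1.39, SE 0.50, adjusted p = 0.301). Astrocytes passed with DESeq2 (adjusted p = 0.0431) and without the filter (7.33e-05). Without the first young hippocampal library, which had the lower young level, the log2 difference was -1.87 (SE 0.31). Hippocampal oligodendrocytes passed without the filter (log2 -0.74, SE 0.21, adjusted p = 0.00787). Oligodendrocytes over both regions passed without the filter (-0.40, adjusted p = 0.0201). Without the second old caudate putamen library their difference was -0.55 (SE 0.13). In granule cells the log2 difference without the first young hippocampal library was -0.30 (SE 0.10).

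Of the polysialyltransferases proper, St8sia2 (ENSMUSG00000025789, minus strand of chromosome 7, 73939119 to 74013690) was at low levels in most adult classes. Its highest levels among the 20 sums were in D2 neurons, 28.5 ± 2.50 CPM, and D1 neurons, 22.1 ± 0.966 CPM (SD, n = 4), whose libraries did not overlap. The D2 to D1 difference was 0.40 (SE 0.03, adjusted p = 1.53e-07) and was kept in each of 8 alternatives. Caudate putamen interneurons had 8.72 ± 5.81 CPM. Their libraries held 15.8 and 9.82 CPM at 3 months, then 7.56 and 1.73 CPM at 21 months, an age difference that was not among the calls. Without the first old caudate putamen library that difference was -2.78 on the log2 scale (SE 0.68). Interneurons were lower than D1 neurons (log2 -1.65, SE 0.37, adjusted p = 0.0136). That call did not hold without the second young or the first old caudate putamen library (adjusted p = 0.0606 and 0.0912).

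Among the 10 compared hippocampal classes St8sia2 had its highest mean in astrocytes, 14.8 ± 5.98 CPM, whose libraries overlapped fibroblasts (9.29 ± 4.07). Granule cells were lowest at 0.193 ± 0.0650 CPM. Astrocyte levels were 13.1 and 7.19 CPM at 3 months and 20.6 and 18.4 CPM at 21 months, a log2 difference of 1.00 that did not pass (SE 0.26, adjusted p = 0.115). Without the first young library, the one with the higher young level, the difference was 1.53 (SE 0.26). Astrocytes of the caudate putamen had less (6.17 ± 0.751 CPM), a region difference of -1.23 (SE 0.21, adjusted p = 0.000842). Oligodendrocytes went the other way, 2.06 higher in the caudate putamen (SE 0.47, adjusted p = 0.0123), from 0.705 ± 0.560 to 2.68 ± 0.669 CPM. The 6 medium spiny markers given above averaged 49.4 CPM in hippocampal and 930.7 CPM in caudate putamen oligodendrocytes. Per 1000 CPM of them, St8sia2 averaged 2.88 CPM in caudate putamen oligodendrocytes, 3.82 in D1, 4.32 in D2 and 2.11 in eccentric neurons. The part of neuronal RNA in this oligodendrocyte difference was not tested. With equal numbers of nuclei the oligodendrocyte call was lost (adjusted p = 0.0747), and the hippocampal sums hold 0 to 6 UMIs. The neuroblast-like class, whose defining genes mark immature granule neurons, held 84.2 and 62.3 CPM of St8sia2 in the 2 young hippocampal libraries (80 and 125 nuclei), and no nuclei of the old libraries fell into it.

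St8sia4 (ENSMUSG00000040710, minus strand of chromosome 1, 95587682 to 95667571) was foremost a gene of endothelial nuclei. They held 365.6 ± 65.1 CPM in the hippocampus, separate from the other 9 compared classes there, and 287.3 ± 118 in the caudate putamen, where pericytes or smooth muscle cells (205.7 ± 56.6) overlapped them. Among neurons, interneurons led in both regions, with 71.9 ± 14.3 and 131.4 ± 18.1 CPM. Granule cells were close behind in the hippocampus at 60.6 ± 1.25 CPM, while CA1 held 10.4 ± 1.42 and CA3 2.73 ± 1.30. Granule cells exceeded CA1 by 2.38 (SE 0.07, adjusted p = 1.91e-11), and CA3 was below CA1 (log2 -1.79, SE 0.21, adjusted p = 1.28e-06). Thus granule cells had St8sia4 and nearly no St8sia5, and CA3 neurons the reverse.

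Caudate putamen interneurons exceeded D1 neurons by 2.35 for St8sia4 (SE 0.11, adjusted p = 8.27e-12). D2 neurons exceeded D1 neurons by 0.35 (SE 0.05, adjusted p = 0.000161), the same direction as St8sia2. Hippocampal interneurons and granule cells differed by 0.17 (SE 0.09, adjusted p = 0.127; 0.0241 without the second old hippocampal library). Granule cells did not pass with age: 59.7 and 62.3 CPM, then 60.7 and 59.6 CPM, a log2 difference of 0.03 (SE 0.06, adjusted p = 0.824).

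The age call over both regions was St8sia4 in oligodendrocytes, the myelin-forming glia. Hippocampal levels were 22.4 and 23.6 CPM at 3 months and 38.0 and 30.9 CPM at 21 months. Caudate putamen levels were 24.8 and 20.1 CPM, then 37.5 and 31.9 CPM. All 4 old libraries were above all 4 young ones, and St8sia4 rose by 0.66 on the log2 scale (SE 0.11, adjusted p = 0.00846). Taken alone, neither region passed (hippocampus 0.64, SE 0.17, adjusted p = 0.102; caudate putamen 0.69, SE 0.15, adjusted p = 0.0561). The caudate putamen passed without the first or the second young hippocampal library, which enter its fit through the shared spread (adjusted p = 0.0390 and 0.0335), and with equal numbers of nuclei (0.0476). Without the filter on low counts both regions passed (hippocampus 0.0109, caudate putamen 0.00139). Without the second young caudate putamen library the adjusted p was 0.0531, and without the first old hippocampal library 0.0676, so the call needs both.

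Other markers were read in the same oligodendrocyte sums. Of 23 lists, 2 did not overlap and were higher in old hippocampal libraries, and 6 were lower. In the caudate putamen 4 were higher and 3 lower. The 9 endothelial markers summed to 28.0 to 34.4 CPM in young and 15.6 to 45.8 CPM in old hippocampal libraries, and to 16.3 to 27.7 and 14.8 to 23.4 CPM in the caudate putamen, so the ages overlapped. In the caudate putamen 9 of 12 astrocyte markers were higher in both old libraries (sum 327.4 to 416.5 CPM, then 515.5 to 575.9), while 1 of 12 was in the hippocampus. Pericyte markers, of a class that also holds St8sia4, summed to 9.42 to 14.9 CPM, then 19.3 to 19.5 CPM in the caudate putamen (4 of 8 higher in both old libraries), and to 15.96 to 16.02 CPM, then 5.71 to 17.6 CPM in the hippocampus (1 of 8). In the hippocampus choroid plexus markers summed to 1516 to 1551, then 1674 to 1709 CPM (3 of 8), and ependymal markers to 11.6 to 12.04, then 15.5 to 22.1 CPM (2 of 8). The part of these markers in the result was not tested. Young males had 11.5 to 19.8 CPM of St8sia4 and young females 20.8 to 32.3 CPM, whereas old males had 27.9 to 38.3 and old females 27.0 to 36.8 CPM. The female minus male age effect was -0.83 and did not pass (SE 0.24, adjusted p = 0.103). Without the second young caudate putamen library it was -1.16 (SE 0.26).

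**Figure D4:**
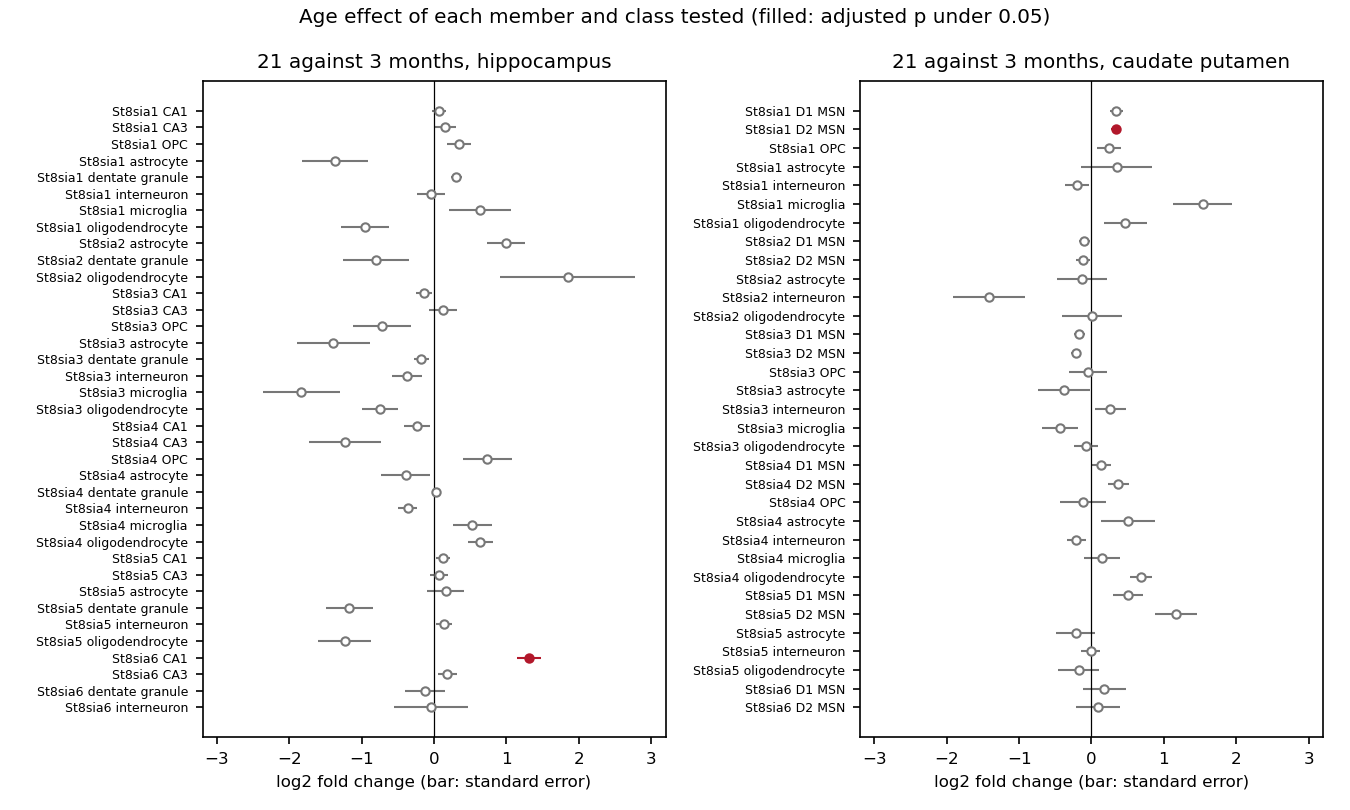
Log2 fold change of 21 against 3 months (points) with its standard error (bars) for each St8sia gene and class tested in the hippocampus (left, 37 tests) and the caudate putamen (right, 33 tests), without St8sia6 in microglia. Filled points passed an adjusted p of 0.05: St8sia6 in CA1 neurons at 1.31 and St8sia1 in D2 neurons at 0.34.

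St8sia6 (ENSMUSG00000003418, minus strand of chromosome 2, 13651021 to 13794064) was high in few of the 20 sums. Endothelial nuclei held 127.8 ± 27.1 CPM in the hippocampus and 122.4 ± 33.7 in the caudate putamen, and CA3 neurons held 112.5 ± 12.9 (SD, n = 4). CA1 neurons (15.7 ± 7.35) and hippocampal interneurons (6.94 ± 3.24) followed, microglia are given below, and the remaining classes had means of at most 2.58 CPM. CA3 exceeded CA1 by 3.11 (SE 0.29, adjusted p = 0.00334), granule cells were below CA1 (log2 -4.13, SE 0.31, adjusted p = 7.83e-05), and interneurons were above granule cells by 2.89 (SE 0.30, adjusted p = 1.96e-07). In CA3 levels were 111.2 and 102.6 CPM at 3 months and 131.2 and 105.2 CPM at 21 months, which overlapped (log2 0.18, SE 0.13, adjusted p = 0.907). Endothelial levels were 112.1 and 100.3 CPM, then 137.8 and 161.0 CPM in the hippocampus, and 133.1 and 121.3, then 157.9 and 77.4 CPM in the caudate putamen. Endothelial sums were not among the fits, and their age difference was not tested.

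The hippocampal age call was St8sia6 in CA1 pyramidal neurons. Levels were 10.1 and 8.85 CPM at 3 months and 23.9 and 19.9 CPM at 21 months, with no overlap. The rise was 1.31 on the log2 scale (SE 0.17, adjusted p = 0.00114), and the call was kept in each of 11 alternatives (highest adjusted p = 0.0437). These sums rest on 156 and 187 UMIs in young and 146 and 83 in old libraries, and no nucleus had more than 11. The share of CA1 nuclei with a St8sia6 UMI was 10.9% and 10.8% in young and 26.2% (exact 95% interval 21.0% to 31.9%) and 17.4% (12.4% to 23.5%) in old libraries. Intervals cover counting error only. Old CA1 nuclei were deeper, with medians of 21952 and 20183 UMIs against 17340 and 17116.5. With each nucleus thinned to 2000 UMIs, the shares were 1.82% and 2.17%, then 3.00% and 3.59%.

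CA3 neurons hold more St8sia6 than CA1, so their markers were read in the CA1 sums. The 9 CA3 markers summed to 105.8 to 117.2 CPM in young and 82.7 to 95.8 CPM in old CA1 sums, with 1 marker higher and 5 lower in both old libraries. Per 1000 CPM of those markers, St8sia6 stood at 53.8 to 64.6 CPM in CA3 itself, 75.6 to 95.8 in young CA1 and 207.5 to 288.5 in old CA1. Endothelial markers summed to 25.6 to 27.2 CPM, then 18.2 to 23.2 CPM, and none of 9 was higher in both old libraries. Of 23 lists of other cell types, 5 did not overlap and were higher in old CA1 sums, and 10 were lower. Choroid plexus markers were among the higher (95.9 to 97.8 CPM, then 153.9 to 281.5 CPM; 2 of 8 in both old libraries), and their part in the result was not tested.

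By sex, female CA1 nuclei had 7.56 and 4.71 CPM of St8sia6 at 3 months and 19.4 and 23.7 CPM at 21 months. Male nuclei had 16.0 and 14.8 CPM, then 29.8 and 6.04 CPM, the last from 4 UMIs in 31 nuclei. Both old females were thus above both young ones, and the males overlapped. The female minus male age effect was 1.40 (SE 0.58, adjusted p = 0.817) and passed without the filter on low counts (adjusted p = 0.0423). Without the first young hippocampal library it was 1.70 (SE 0.45).

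In microglia, the resident immune cells of the brain, the age difference of St8sia6 chose the family and is given as a description. Hippocampal levels were 20.3 and 14.01 CPM at 3 months and 121.6 and 76.1 CPM at 21 months. Caudate putamen levels were 5.95 and 6.81 CPM, then 56.5 and 59.0 CPM. Every old library was above every young one, with fitted log2 fold changes of 2.58 and 3.12. The counts are small: 12 and 13 UMIs in young and 59 and 46 in old hippocampal sums, and 4 and 13, then 63 and 53 in the caudate putamen.

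Those UMIs were spread over nuclei, with at most 6 in any microglial nucleus. In the hippocampus 11 of 213 and 10 of 315 young nuclei had a St8sia6 UMI (5.16% and 3.17%), against 28 of 165 and 29 of 197 old ones (16.97% and 14.7%). In the caudate putamen it was 3 of 237 and 11 of 647 (1.27% and 1.70%), then 41 of 416 and 40 of 416 (9.86% and 9.62%). Oligodendrocytes, a class with low St8sia6 here (means of 1.14 CPM in the hippocampus and 0.349 in the caudate putamen), had 0.0415% to 0.514%. Their medians were 2509 to 3693.5 UMIs per nucleus, against 2015 to 2861 in microglia. Thinned to 2000 UMIs per nucleus, the microglial shares were 4.55% and 2.92%, then 13.8% and 12.8% in the hippocampus, and 0.524% and 1.39%, then 9.43% and 7.44% in the caudate putamen. Nuclei under that depth were left out, so these shares are of the deeper nuclei. In the hippocampus 59 and 75 young and 27 and 41 old microglia were left out. In the caudate putamen it was 46 and 142 young and 119 and 201 old ones.

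Endothelial nuclei hold St8sia6 as well, so their markers were read in the microglial sums. The 9 endothelial markers summed to 60.4 to 79.7 CPM in young and 100.8 to 113.4 CPM in old hippocampal microglia, with 1 higher and 2 lower in both old libraries. In the caudate putamen they summed to 38.2 to 74.4 CPM, then 51.2 to 80.7 CPM. Per 1000 CPM of those markers St8sia6 stood at 6.07 to 10.9 CPM in endothelial nuclei, 80.0 to 255.3 in young and 700.0 to 1152 in old microglia. Of 23 lists of other cell types, 4 did not overlap and were higher in old hippocampal microglia, and 5 were lower. In old caudate putamen microglia 5 were higher and 2 lower. D2 neuron markers summed to 758.7 to 761.1, then 886.2 to 914.3 CPM in the hippocampus (1 of 11 higher in both old libraries), and CA3 markers to 291.7 to 292.7, then 302.9 to 322.6 CPM in the caudate putamen (3 of 9). T cell markers summed to 465.6 to 483.1 CPM, then 545.6 to 643.0 CPM in the hippocampus (1 of 8 higher in both old libraries; Cd3e, Cd3g, Trac and Cd2 at 0 in all), and to 400.1 to 447.9, then 522.8 to 566.4 CPM in the caudate putamen (5 of 8; Cd3e at 0). Fibroblast markers summed to 30.5 to 43.1, then 71.1 to 74.2 CPM in the hippocampus (2 of 8) and to 25.3 to 43.5, then 62.3 to 64.5 CPM in the caudate putamen (1 of 8). Pericyte markers of the caudate putamen (11.9 to 14.7, then 30.5 to 44.5 CPM; 2 of 8) and astrocyte markers (550.9 to 605.6, then 654.2 to 813.1 CPM; 5 of 12) were higher as well. Their part in the St8sia6 levels was not tested.

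Averaged over ages, microglial St8sia6 was lower in the caudate putamen (log2 -1.03, SE 0.27, adjusted p = 0.0230). This region call comes from the sums whose age difference chose the family, and it is given as a description. That call was lost with DESeq2 (adjusted p = 0.0723) and without the first young hippocampal (0.109), the first old hippocampal (0.0738) or the second young caudate putamen library (0.129). Female microglia had more St8sia6 than males of the same library in 6 of 8 libraries. These counts are small, with 0 to 16 UMIs in the male sums and 4 to 41 in the female ones. The sex difference, fitted on counts of the microglia that chose the family, was 0.94 (SE 0.38, adjusted p = 0.710) and did not pass. Across the family the sexes differed in 0 of 47 tests by edgeR (background 0.203%), with 6 at an unadjusted p under 0.05, and their age effects in 0 of 47 (background 0.311%), with 3 unadjusted; DESeq2 made 0 calls in both.

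**Figure D5:**
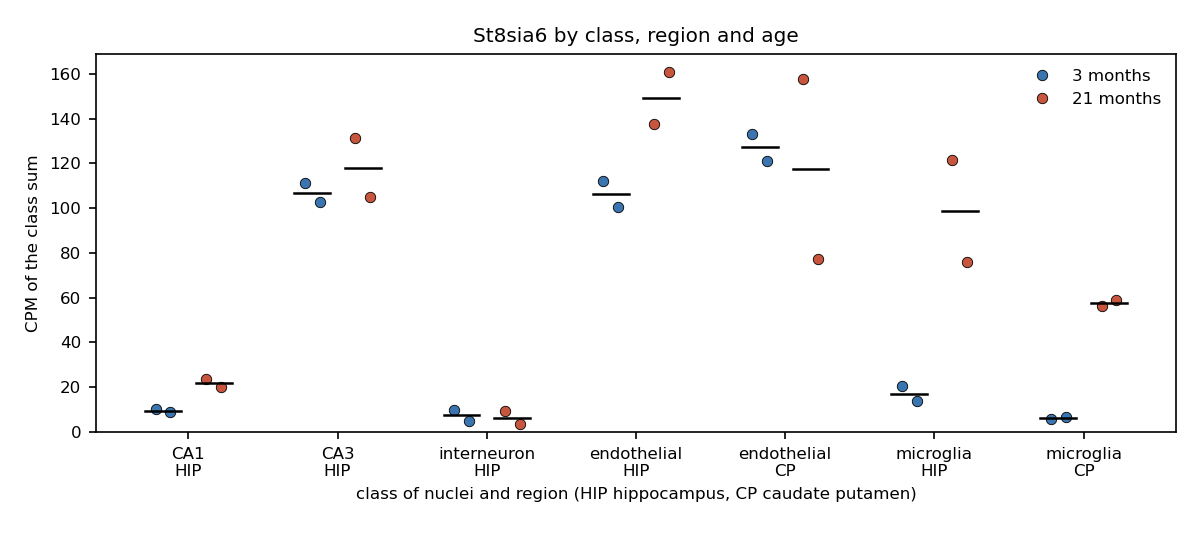
St8sia6 level (CPM of the class sum, linear axis from 0) in 7 class sums of the hippocampus (HIP) and caudate putamen (CP); each point is a library, blue at 3 and red at 21 months, and bars are means of 2 libraries. Old points lie above young ones in microglia of both regions, in CA1 neurons and in hippocampal endothelial nuclei, and the ages overlap in CA3.

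Microglia with a St8sia6 UMI were compared with the others of the same library for a list of 21 activation genes, of which 20 were measured, at 1500 UMIs per nucleus. Only the 4 old libraries had 10 or more nuclei on each side. In them the summed activation level was 1737, 2139, 1352 and 1718 CPM in nuclei with a St8sia6 UMI, and 1145, 1079, 1227 and 1079 CPM in nuclei without. The log2 ratio averaged 0.60 ± 0.35 (SD, n = 4) and was above 0 in 4 of 4 libraries. The 4 young libraries, with 2.45 to 6.18 such nuclei on average over draws, had log2 ratios of -0.02, 0.42, -1.48 and 0.26, on both sides of 0. For 11 homeostatic genes it averaged -0.21 ± 0.05 and was below 0 in all 4. The exact two-sided permutation p was 0.125 for each, the smallest that 4 libraries allow, so this test could not pass 0.05 whatever the values, and the ratios stand as a description.

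Other genes of sialic acid metabolism were read in the same fits, with counts over genes and classes. Of 5 genes that make and transport the activated sialic acid, no test passed by edgeR: 0 of 32 in the hippocampus, 0 of 30 in the caudate putamen and 0 of 17 over both regions (1, 0 and 1 at an unadjusted p under 0.05). Of 14 other sialyltransferases, 1 of 94 tests was lower in the hippocampus, 1 of 83 higher in the caudate putamen, and 1 of 45 higher and 1 lower over both regions. Of all tests of any gene, 0.955%, 1.54% and 3.4% passed in these comparisons, so the list's shares are near the background. In CA1 neurons St6gal1, which caps N-glycans, fell from 12.3 and 14.8 CPM to 5.396 and 5.51 CPM (log2 -1.23, SE 0.20, adjusted p = 0.00861), in the sums where St8sia6 rose. In oligodendrocytes, where St8sia4 rose, St3gal1, which sialylates O-glycans, rose by 0.68 over both regions (SE 0.14, adjusted p = 0.0179).

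Genes for proteins that carry polysialic acid had 2 calls of 12 over both regions, both higher, where 3.4% of all tests of any gene passed; that share also stands beside the next 3 counts, each of a single call. Nrp2, a carrier modified by St8sia4 in immune cells, rose in oligodendrocytes by 0.54 (SE 0.09, adjusted p = 0.00684), from 45.6 and 48.4 to 58.3 and 59.2 CPM in the hippocampus and from 32.7 and 26.4 to 48.4 and 44.4 CPM in the caudate putamen. Cadm1, an adhesion molecule that carries polysialic acid in glial precursors, rose in microglia by 0.76 (SE 0.09, adjusted p = 0.000142). Of the sialic acid receptors 1 of 9 tests passed: Cd22 rose in microglia by 2.00 (SE 0.49, adjusted p = 0.0472), from 2.16 to 4.71 CPM across young and 11.1 to 16.5 CPM across old libraries. The sialidase Neu4, which removes sialic acid, fell in OPC (log2 -0.45, SE 0.10, adjusted p = 0.00894), 1 of 9 sialidase tests. Of the 5 genes of ganglioside core synthesis, B4galt6 fell in astrocytes over both regions (log2 -0.45, SE 0.09, adjusted p = 0.0164), 1 of 17 tests.

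Each member had its own profile over the 20 class sums. On mean log2(CPM + 1), the Pearson correlation between 2 members ranged from -0.298 (St8sia4 and St8sia5) to 0.247 (St8sia4 and St8sia6). Among 16599 genes that reach 5 CPM in any sum, the most alike to St8sia1 were Gpr45 (r = 0.890), Elfn2 (0.884) and Sntg1 (0.881), and to St8sia2 Gm31938 (0.792), Lncbate1 (0.783) and Abi3bp (0.783). For St8sia3 they were Rasd2 (0.956), Mchr1 (0.954) and Npas4 (0.953), for St8sia4 Fam193b (0.806), Smco4 (0.804) and Eef1e1 (0.80). For St8sia5 they were Frmpd3 (0.908), Gm7276 (0.857), whose annotation overlaps St8sia5, and Stac2 (0.815), and for St8sia6 Ly6e (0.889), Gm39556 (0.873) and Pdgfb (0.857). These are descriptions over 20 means that share libraries and depth.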

How the data were processed

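Per the file headers and values, the deposited matrices hold raw UMI counts per gene and barcode, whole numbers without normalization, made by the authors with Cell Ranger 6.1.2 (7 libraries) or 7.0.0 (1 library, the second young caudate putamen one). The submitters' processing notes name Cell Ranger 4.0.0 and mm10, and use of introns and strand is not given in the sources used here. Of 109826 barcodes, 1307 were removed for detecting fewer than 500 genes and 3 for a mitochondrial share above 5%. Scrublet in scanpy 1.11.5 called 10641 doublets (2.55% to 15.6% per library), with a rule for implausible automatic thresholds set after seeing their shares, leaving 97875 nuclei.

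Each region was clustered (3000 variable genes without the members and sialic acid lists, 40 components, 20 neighbours, Leiden resolution 1.0) and clusters named from marker lists, with limits adjusted on marker tables before any test of the members. Class sums per library were tested in edgeR 4.0.16 (quasi-likelihood, TMM, filterByExpr, robust) under R 4.3.3, glia on 8 libraries and neurons on the 4 of their region. Class pairs and sexes had the library as a block, and a nucleus was female with Xist UMIs and none of 4 Y-linked genes, and male in the reverse case. P-values were adjusted by Benjamini-Hochberg over all genes tested in a class. Level spreads are SD, and fold changes carry SE. Replicate numbers were not taken as pairs.

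On simulated counts the fits called 60% of genes changed 2-fold and 92% changed 4-fold in microglia over both regions (10233 genes), 97% and 99% in hippocampal CA1 (14643 genes), 96% and 100% in caudate putamen D2 (17325 genes), and 97% and 100% in oligodendrocytes over both regions (14640 genes). Of all calls there, 7.88%, 7.55%, 10.91% and 4.37% were false, against a nominal 5%. The gene numbers in brackets are all genes in a fit. Only 100 of them were changed by each fold, drawn from genes above a minimum mean level. The shares called therefore do not apply to members at low levels, such as St8sia5 in D2 neurons and in granule cells. Alternatives were DESeq2 1.42.0, no filter, a replicate block, doublets retained, resolutions 0.5 and 2.0, equal numbers of nuclei, each region alone and leaving out each library. All 6 members are named in each comparison; of the lists, at most 3 genes per comparison with the smallest adjusted p under 0.05; and the 3 genes most correlated with each member. The members and lists were chosen with earlier results of these data known. Gene positions are from GENCODE vM21 (GRCm38). No sequence is shown.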

Additional observations from a re-analysis of the deposited data

How the results depend on the processing

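No result reversed under any alternative. Counts of members called with age, each 1 as reported, moved most. They stand without the share of all genes called under the same alternative, so they are not a result about the members. In the hippocampus DESeq2 gave 3, no filter on low counts 9, and leaving out 1 library 1 to 6. In the caudate putamen no filter gave 4, the region alone 2, and leaving out 1 library 0 to 2. Over both regions DESeq2 gave 2, no filter 5, and leaving out 1 library 0 to 6. Of the libraries left out, the first young hippocampal one gave the largest counts in the hippocampus and over both regions. Calls in the sex comparisons, 0 as reported, were 1 without the filter and 0 to 1 with 1 library left out, each a difference between the sexes' age effects. Calls between regions (8) ranged from 6 to 9 and between classes (24) from 23 to 25.

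The labels number the libraries of each group alike but do not tie the numbers to animals, so no pairing was assumed. With the replicate block the counts were 3 in the hippocampus, 7 in the caudate putamen and 2 over both regions, and calls gained in the caudate putamen were St8sia1 in D1 (adjusted p = 0.00548), St8sia3, St8sia4 and St8sia5 in D2 (0.0439, 0.00279 and 0.000635), St8sia5 in D1 (0.0466) and St8sia4 in oligodendrocytes (0.0479). In the hippocampus St8sia2 and St8sia3 in astrocytes were gained (0.0328 and 0.0235). These counts too stand without the share of all genes called with the block. Deviations of libraries with the same number correlated from 0.045 to 0.659 in 10 caudate putamen sums (8 over 0.1) and from -0.271 to 0.266 in 10 hippocampal ones (2 over 0.1), a hint from the data in the caudate putamen and not part of the design.

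For St8sia6 in microglia the caudate putamen log2 fold change of 3.12 became 2.66 with equal numbers of nuclei and 3.07 to 3.27 with 1 library left out. The old minus young difference in the share of nuclei with a UMI, 11.7 percentage points in the hippocampus and 8.25 in the caudate putamen, became 7.37 and 3.94 at 1000 UMIs per nucleus and 9.56 and 7.48 at 2000. The causes of these shifts were not tested. The activation ratio of 0.60 was 0.47 to 0.75 with 1 library left out and 0.56 at 1000 UMIs. With 2 libraries per group, and 4 to 63 UMIs of St8sia6 per microglial sum, small changes cannot be told from the spread.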

Other observations

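Rarer classes, under 20 nuclei in at least 1 library of their region, were left out of the comparisons and are given as values. Border macrophages, the macrophages of meninges and vessels, held 212.6, 174.0, 338.8 and 234.7 CPM of St8sia4 in the 4 hippocampal libraries (12 to 31 nuclei each). St8sia6 had 0 UMIs in 7 of the 8 border macrophage sums of both regions, whose 4 to 31 nuclei are too few for a comparison. Hippocampal pericytes or smooth muscle cells held 85.1 to 215.0 CPM of St8sia4. Ependymal nuclei, which line the ventricles, were found in 2 caudate putamen libraries (38 and 15 nuclei) and held 95.1 and 163.5 CPM of St8sia2 (22 and 15 UMIs). Cholinergic interneurons of the caudate putamen held 10.6, 12.98, 4.25 and 13.5 CPM of St8sia6, while the other interneurons there held 0.575 to 1.28 CPM.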
